A study of Homo sapiens with 8 samples.

Results

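Collagens, laminins and other genes of the extracellular matrix were examined across RNA-seq libraries of 2 human prostate cancer cell lines. The 42 genes were taken by symbol from the 58828 genes of the deposited count tables, and all 42 were found. They were chosen from measured values of these same libraries, and the rule does not say which comparison chose them, so counts over the list are given as a description and nothing is read from them. The study asked how PAGE4, a small disordered protein of the cancer/testis antigen family, acts in prostate cancer cells under oxidative stress. RNA came from 22RV1 cells and from DU145 cells. Each line carried either an empty lentiviral vector or the same doxycycline-inducible vector with HA-tagged PAGE4, and was treated for 12 h with PBS or with 200 mM H2O2. Cells of all groups were transduced, selected with puromycin and given doxycycline. This gave 8 conditions with 1 library each: 22RV1 vector with PBS, 22RV1 vector with H2O2, 22RV1 PAGE4 with PBS, 22RV1 PAGE4 with H2O2, and the same 4 in DU145. Each construct in a line stands for 1 transduced culture, so a difference between cultures and an effect of the construct cannot be told apart. For the extraction of RNA, Trizol is given in the labels and a column kit in the methods of the study. Some of the study's other measurements with H2O2 used a lower dose.

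The extracellular matrix holds cells in place and carries signals to them. Epithelial cells sit on a basement membrane, a sheet in which laminin trimers and type IV collagen form separate networks that nidogen, perlecan and agrin join. Beneath it lie fibrillar collagens, beaded filaments of type VI collagen, fibronectin and microfibrils of fibrillin. Prostate glands rest on such a membrane, and cells bind it through integrins and dystroglycan. Matrix chains are made as large secreted precursors, and each trimer needs its own set of chains.

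Total counts ranged from 25482984 to 43310401 per library. Raw counts of PAGE4 were 0 or 1 in the 4 vector libraries and between 1001 and 1489 in the 4 PAGE4 libraries, in the direction the labels give. Most markers of the lines also went with their names. HOXB13, a prostate homeobox factor, was at 5722 normalized counts in untreated 22RV1 vector cells and at 4.48 in DU145 vector cells. AXL, a receptor kinase high in DU145, was at 7.56 and 10364 in the same libraries. TRPM8 was near 0 in both lines, and CD44 and LGALS1 did not separate them. Since stromal cells are the main source of many matrix genes, their markers were also counted. The summed level of 9 fibroblast and stromal markers was between 399 and 635 normalized counts in 22RV1 and between 197 and 430.4 in DU145, most of it TAGLN in all libraries but DU145 PAGE4 with H2O2, with DCN at 0 in all DU145 libraries and POSTN at 0 in all 22RV1 libraries. The summed level of 4 endothelial markers reached 11.0 in 22RV1 and 31.2 in DU145, and that of 3 blood markers reached 10.9 and 7.47. Their part in the results was not tested.

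Normalized counts are raw counts divided by a size factor for each library. For a given gene and line, 4 values are always given in the order vector with PBS, vector with H2O2, PAGE4 with PBS and PAGE4 with H2O2. Pairs of libraries were compared by fold change after adding 0.5 to the normalized count, and a fold over 1.5 was counted. The intervals beside such folds are 95% counting intervals. With a single library per condition they hold no spread between cultures, only that of counting. The quasi-likelihood test of edgeR was fitted to all 8 libraries with a term for PAGE4 and a term for H2O2 in each line, which leaves 2 residual degrees of freedom. It treats the PBS pair and the H2O2 pair of a line as repeats of 1 PAGE4 effect. Its adjusted p-values are taken over all 19784 genes tested. They rest on the spread the fit leaves between these libraries and hold none between repeat cultures. They do not allow for the way the members were chosen. A gene was called at an adjusted p under 0.05. The SE beside a fitted effect was derived from this test, as the absolute effect divided by the square root of its F statistic. It is thus an approximate standard error. An interaction of PAGE4 with H2O2 within a line could not be tested. In bulk RNA, fewer cells expressing a gene and less RNA per cell cannot be told apart.

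At least 10 normalized counts on average over the 4 libraries of a line were reached by 35 members in 22RV1 and by 32 in DU145, with 29 in both, 6 in 22RV1 only, 3 in DU145 only and 4 in neither. The edgeR test kept 37 members. The other 5 were COL1A2, COL3A1, COL11A1, LAMA4 and SPARC, which had at most 26 raw counts in any library. COL1A2, the partner chain of COL1A1 in type I collagen, had raw counts of 6, 1, 8 and 3 in 22RV1 and 0, 0, 1 and 0 in DU145. Its partner COL1A1 had 378, 750, 480 and 766 and 249, 154, 251 and 145. Both lines thus counted 1 chain of type I collagen with very few reads of the other. The members together took 0.135% to 0.147% of all counts in 22RV1 libraries, 0.293% and 0.304% in DU145 libraries with PBS, and 0.206% and 0.211% in DU145 libraries with H2O2.

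**Figure D1:**
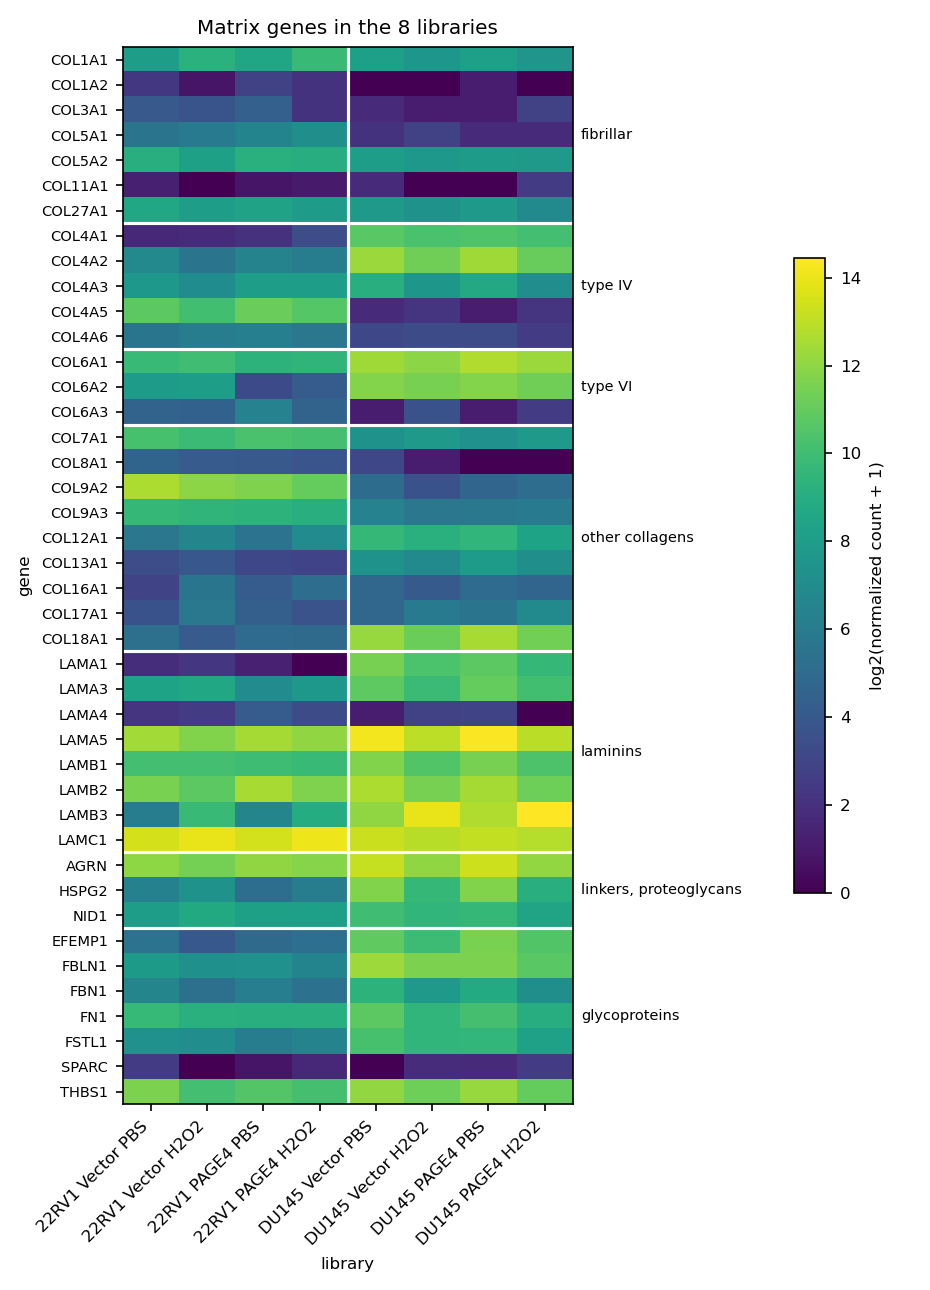
Level of each of the 42 matrix genes (rows, grouped by role) in the 8 libraries (columns), as log2 of the normalized count plus 1. LAMC1 and LAMA5 are bright in all 8 libraries, COL4A5 and COL9A2 are bright in 22RV1 only, and COL4A1, COL18A1 and LAMA1 are bright in DU145 only.

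Compared per kilobase of exon, LAMC1, the gamma chain of most laminins, had the highest mean level of the members in 22RV1, at 1653 normalized counts per kb. It was followed by COL9A2 at 935, LAMB2 at 508, AGRN at 341 and LAMA5 at 331. In DU145, LAMB3 led with 2655 normalized counts per kb, before LAMC1 at 1001, LAMA5 at 968, COL6A1 at 943 and AGRN at 649.5. LAMB3 ranked 11 in 22RV1 on the same scale, and COL9A2 ranked 31 in DU145.

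More members were called between the cell lines than with PAGE4 or H2O2, and the same held for all genes tested. By edgeR, 12 of the 37 members tested were higher in 22RV1, where 40.4% of all genes tested were, and 24 were lower, where 36.3% were. COL16A1 was not called. Ratios between the lines are given from counts summed over the 4 libraries of each line.

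Fibrillar collagens form the tensile fibres of connective tissue. All 4 tested were higher in 22RV1, where 40.4% of all genes tested were. COL5A1, a type V chain that sets fibril diameter, was at 46.7, 61.0, 90.9 and 144 normalized counts in 22RV1 and at 3.36, 6.25, 2.27 and 2.49 in DU145, and was 22.5-fold higher in 22RV1 (95% counting interval 12.7 to 43.9). Every 22RV1 library lay above every DU145 library. COL5A2, the other type V chain, was at 522, 299, 567 and 507 and 269, 209.9, 256 and 212 and also did not overlap between the lines. COL1A1 overlapped at its lower end, since 22RV1 vector cells with PBS had 259.8 normalized counts and DU145 had up to 284. COL27A1 was between 239 and 392 in 22RV1 and between 113 and 224 in DU145.

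Type IV collagen is the network collagen of basement membranes, and its genes lie in head-to-head pairs that start close together on opposite strands. The lines had reads from different pairs. COL4A1, one of the widely used chains, was at 1714, 1233, 1391 and 1115 normalized counts in DU145, whereas its raw counts in 22RV1 were 3, 3, 4 and 9. It was 357-fold higher in DU145 (95% counting interval 228 to 594). Its neighbour COL4A2 was at 5024, 2573, 5304 and 2132 in DU145 and at 112, 46.9, 85.4 and 68.6 in 22RV1, 47.8-fold higher in DU145 (95% counting interval 43.2 to 52.9). COL4A2 thus had reads in 22RV1 libraries in which COL4A1 had at most 9. The opposite held on chromosome X. COL4A5 was at 1773, 1086, 2229 and 1565 in 22RV1 and had raw counts of 2, 3, 1 and 3 in DU145, 629-fold higher in 22RV1 (95% counting interval 331 to 1376). COL4A6, which shares the locus, was at 47.4, 68.8, 73.0 and 51.2 and 7.85, 8.75, 9.06 and 4.98 and was 7.84-fold higher in 22RV1 (95% counting interval 5.24 to 12.2). The remaining pair differed less. COL4A3 was at 204, 131, 259 and 263 in 22RV1 and 540.3, 196, 411 and 133 in DU145, and the lines overlapped, because both DU145 libraries with H2O2 lay within the range of 22RV1, and its call was lost when the line was the only term. Its neighbour COL4A4, which is not a member, was at 79.7, 41.4, 69.1 and 83.9 and 1018, 477, 975 and 385, 10.7-fold higher in DU145 (95% counting interval 9.57 to 12.1).

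**Figure D2:**
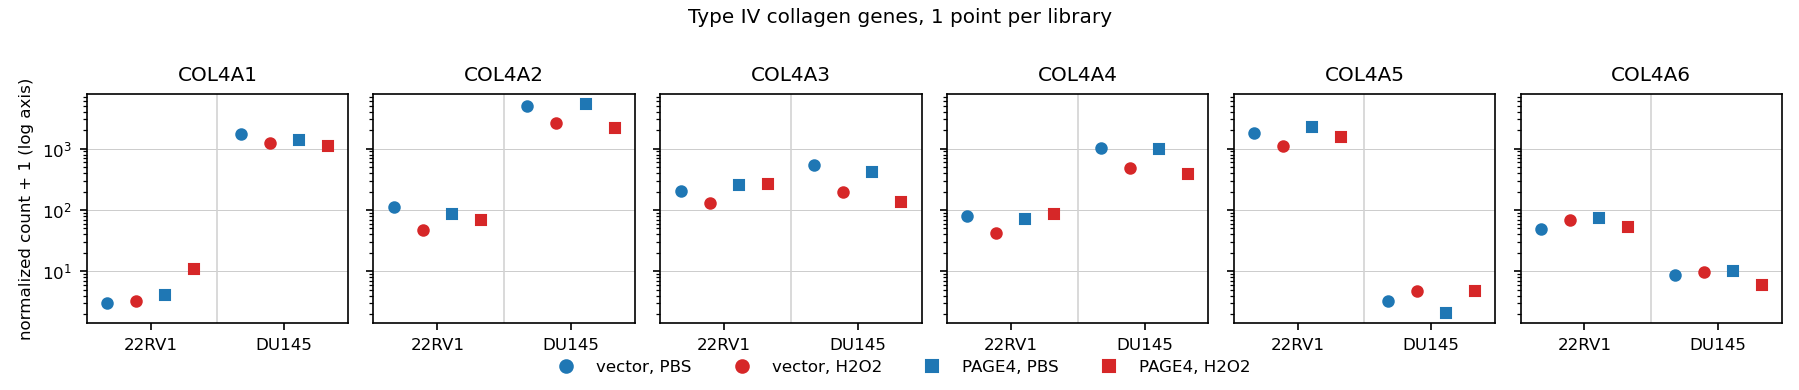
Normalized count plus 1 (log axis) of the 6 type IV collagen genes, 1 point per library. Circles are vector and squares PAGE4 cells, and blue is PBS and red H2O2. COL4A1 and COL4A2 lie high in DU145, COL4A5 lies between 1086 and 2229 in 22RV1 and under 4 in DU145, and COL4A3 overlaps between the lines.

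The start sites of COL4A1 and COL4A2 are 126 bases apart and those of COL4A6 and COL4A5 379 bases apart in RefSeq on GRCh38.p14, and those of COL4A4 and COL4A3 are 170 bases apart in GENCODE release 44. Sequence before the starts is shown for the pairs whose lines differed most, because neighbouring genes share it. The first run lies between the COL4A1 and COL4A2 starts (chr13:110307158-110307257, plus strand), without the last 26 bases, which GENCODE gives to an exon of another COL4A2 transcript. The next is the 250 bases before the COL4A5 start (chrX:108439588-108439837, plus strand). Capitals mark each match to GGGCGG or to CCAAT on either strand.
COL4A1-COL4A2: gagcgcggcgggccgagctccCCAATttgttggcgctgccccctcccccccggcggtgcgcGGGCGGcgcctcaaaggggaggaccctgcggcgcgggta
COL4A5: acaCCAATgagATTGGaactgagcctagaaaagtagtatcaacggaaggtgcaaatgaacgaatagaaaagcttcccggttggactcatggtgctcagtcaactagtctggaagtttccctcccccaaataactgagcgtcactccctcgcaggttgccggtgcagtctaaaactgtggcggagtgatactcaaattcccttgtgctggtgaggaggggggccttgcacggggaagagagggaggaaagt
The run between COL4A1 and COL4A2 holds 78.0% G or C with 1 GGGCGG and 1 CCAAT, and the run before COL4A5 holds 51.2% with no GGGCGG and 2 CCAAT, of which 1 reads as ATTGG. Of 35116 RefSeq windows of 250 bases before a start, 42.6% hold GGGCGG and 32.0% hold CCAAT. The run between COL4A1 and COL4A2 is 100 bases long, so these shares are not on its scale. The run before COL4A5 covers part of the 379 bases between the starts, and a window before a COL4A6 start holds GGGCGG. These matches are letters in a window and say nothing about binding.

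Type VI collagen forms beaded filaments near the cell surface from 3 chains. COL6A1 was at 5254, 3935, 6746 and 4951 normalized counts in DU145 and 841, 1025, 637 and 692 in 22RV1, 6.51-fold higher in DU145 (95% counting interval 6.29 to 6.74). COL6A2 was 20.9-fold higher in DU145 (95% counting interval 19.4 to 22.6), a ratio that includes both 22RV1 PAGE4 libraries, where it was low. COL6A3, the third chain, had raw counts of 34, 27, 108 and 21 in 22RV1 and 1, 9, 1 and 4 in DU145. DU145 cells therefore carried many reads of 2 chains and at most 9 of the third in a library.

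The other collagens split between the lines, with 4 higher and 4 lower in 22RV1, where 40.4% and 36.3% of all genes tested were. COL9A2 and COL9A3 are chains of type IX collagen, which coats cartilage fibrils. COL9A2 was at 6566, 3932, 3169.9 and 2095 normalized counts in 22RV1 and 33.6, 11.2, 24.9 and 34.8 in DU145, 158-fold higher in 22RV1 (95% counting interval 129 to 197). COL9A3 was at 795, 684, 633 and 549 and 82.9, 52.5, 53.2 and 62.2, 10.8-fold higher in 22RV1 (95% counting interval 9.36 to 12.4). COL7A1, the collagen of the anchoring fibrils under epithelia, was 5.98-fold higher in 22RV1 (95% counting interval 5.51 to 6.50). COL8A1, a network collagen, had between 12 and 35 raw counts in 22RV1 libraries and between 0 and 7 in DU145. In the other direction, COL18A1, a basement membrane collagen whose end fragment is endostatin, was at 4686, 2347, 5944 and 2628 in DU145 and 38.5, 16.4, 31.8 and 30.5 in 22RV1, 134-fold higher in DU145 (95% counting interval 114 to 159). COL13A1, a collagen that spans the cell membrane, was at 165, 120.0, 255 and 147 in DU145 and 9.62, 14.1, 7.76 and 6.54 in 22RV1, 17.8-fold higher in DU145 (95% counting interval 13.3 to 24.5). COL12A1, which binds along fibrils, was 8.13-fold higher in DU145 (95% counting interval 7.28 to 9.11). COL17A1, the transmembrane collagen of hemidesmosomes, was 2.48-fold higher in DU145 (95% counting interval 1.97 to 3.13), but 22RV1 vector cells with H2O2 (53.1) lay above 2 of the 4 DU145 libraries, and the call was lost when the line was the only term. COL16A1 was at 6.87, 48.5, 17.1 and 34.9 and 25.8, 16.2, 31.7 and 24.9, with a fitted difference of -0.099 ± 0.38 (SE) on the log2 scale.

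Laminins are trimers of an alpha, a beta and a gamma chain. Of the 7 tested members, 6 were higher in DU145, where 36.3% of all genes tested were. LAMA1, the alpha chain of the embryonic basement membrane, was at 2839, 1323, 1762 and 772 normalized counts in DU145, and its raw counts in 22RV1 were 4, 5, 2 and 0. It was 767-fold higher in DU145 (95% counting interval 428 to 1537). LAMA5, the main alpha chain of adult epithelia, was at 18759, 8169, 20641 and 7792 in DU145 and 5525, 3358, 5863 and 4184 in 22RV1, and every DU145 library was above every 22RV1 library. LAMA3 and LAMB3 are chains of the laminin that fastens epithelial cells through hemidesmosomes. LAMB3 was 33.3-fold higher in DU145 (95% counting interval 31.7 to 34.9) and LAMA3 was 5.56-fold higher in DU145 (95% counting interval 5.23 to 5.90). Of the beta chains that pair with LAMA5, LAMB1 was 2.21-fold higher in DU145 (95% counting interval 2.13 to 2.29), while LAMB2 overlapped between the lines, at 2960.4, 1762, 5979 and 3241 and 6453, 2833, 5789 and 2423, and lost its call when the line was the only term. LAMC1 was the 1 laminin chain called higher in 22RV1, at 11687, 15941, 11189 and 17021 against 10125, 7597, 8953 and 7153, 1.6-fold higher in 22RV1 (95% counting interval 1.58 to 1.63).

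The proteins that join laminin to type IV collagen were all called higher in DU145, where 36.3% of all genes tested were. HSPG2 (perlecan), a large heparan sulfate proteoglycan, was 23.5-fold higher in DU145 (95% counting interval 21.4 to 26.0). NID1 (nidogen) was 2.26-fold higher in DU145 (95% counting interval 2.13 to 2.41) and AGRN (agrin), a proteoglycan that binds dystroglycan, was 1.93-fold higher in DU145 (95% counting interval 1.9 to 1.97). NID1 and AGRN overlapped between the lines, since the lowest DU145 library, with H2O2, was below the highest 22RV1 library. All 6 tested glycoproteins were also higher in DU145, against the same share. EFEMP1, of the fibulin family, was at 1906, 942, 2912 and 1441 normalized counts in DU145 and 44.7, 14.8, 31.1 and 38.1 in 22RV1, 56.9-fold higher in DU145 (95% counting interval 48.6 to 67.0). FBLN1, a fibulin of basement membranes and elastic fibres, was 19.8-fold higher in DU145 (95% counting interval 18.4 to 21.3). FSTL1, a secreted follistatin-like glycoprotein, was 6.50-fold higher in DU145 (95% counting interval 5.94 to 7.13), and FBN1, the fibrillin of microfibrils, was 5.87-fold higher in DU145 (95% counting interval 5.18 to 6.65). THBS1 (thrombospondin) and FN1 (fibronectin) were 1.92-fold and 1.71-fold higher in DU145. Both overlapped between the lines, and FN1 lost its call when the line was the only term.

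PAGE4 was compared with the vector within each line and treatment. In 22RV1 with PBS, 14 of 35 members differed by more than 1.5-fold, 6 higher and 8 lower, where 17.9% of all genes at the same minimum did. With H2O2, 16 of 35 did, 6 higher and 10 lower, where 21.4% of all genes did. The median log2 fold change of the 35 members was -0.21 with PBS and -0.054 with H2O2, and that of all genes was 0.021 and 0.033. The PBS and the H2O2 pair hold different libraries. In both pairs, 2 members were higher (COL5A1 and LAMB2), 5 were lower (COL6A2, COL9A2, FSTL1, HSPG2 and LAMA3), and COL17A1 was higher with PBS and lower with H2O2. By edgeR, 1 of 37 members was higher with PAGE4 in 22RV1, where 2.51% of all genes tested were, and 7 were lower, where 2.69% were.

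Among the members called, COL6A2 changed most. Its normalized counts in 22RV1 were 252 and 263 in vector cells and 8.54 and 17.4 in PAGE4 cells, from 366, 336, 11 and 16 raw counts. Both PAGE4 libraries lay far below both vector libraries, 27.9-fold with PBS (log2 interval -5.90 to -4.02) and 14.7-fold with H2O2 (log2 interval -4.74 to -3.19). The fitted effect was -4.39 ± 0.21 (SE) on the log2 scale (edgeR adjusted p = 4.3e-11). In DU145 the same gene was at 3438, 2834, 3470.2 and 2513, with a fitted effect of -0.08 ± 0.11 (SE) (edgeR adjusted p = 0.919), and the lines differed by -4.31 ± 0.25 (SE) (edgeR adjusted p = 5.67e-09). COL6A2 lies at chr21:46098112-46132848 and COL6A1 at chr21:45981770-46005050 (GRCh38, GENCODE release 44), and 93062 bases separate them. It also fell with PAGE4 in 22RV1, by a smaller amount, to 637 and 692 from 841 and 1025, with a fitted effect of -0.51 ± 0.092 (SE) (edgeR adjusted p = 0.00158). The third chain did not move with them. COL6A3 was at 23.4, 21.1, 83.9 and 22.9 in 22RV1, so it was 3.53-fold higher in PAGE4 cells with PBS and near the vector value with H2O2, and it was not called.

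The 250 bases before the COL6A2 start in RefSeq on GRCh38.p14 (chr21:46097862-46098111, plus strand) are shown because this gene had the widest PAGE4 effect among the members called. Capitals mark GGGCGG on either strand and TATAAA.
COL6A2: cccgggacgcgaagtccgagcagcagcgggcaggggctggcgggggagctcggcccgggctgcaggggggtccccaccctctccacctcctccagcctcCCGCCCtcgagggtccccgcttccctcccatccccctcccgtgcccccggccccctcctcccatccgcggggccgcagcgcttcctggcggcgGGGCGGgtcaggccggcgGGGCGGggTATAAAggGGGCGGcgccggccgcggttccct
The run is 79.6% G or C and holds GGGCGG in 4 places, 1 of them as CCGCCC, and TATAAA once, starting 32 bases before the start. TATAAA is in 10.7% of the windows of this length before all RefSeq starts, and GGGCGG in 42.6%. These matches too say nothing about binding.

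Members of other roles also fell with PAGE4 in 22RV1. LAMA3 was at 333, 404, 125 and 205 normalized counts, so both PAGE4 libraries were below both vector libraries, with a fitted effect of -1.22 ± 0.14 (SE) (edgeR adjusted p = 1.27e-05). LAMB3, which joins LAMA3 in a laminin, did not move one way. It was 1.41-fold higher in PAGE4 cells with PBS and 1.79-fold lower with H2O2, and it was not called (edgeR adjusted p = 0.159). HSPG2 was at 81.1, 161, 36.5 and 66.5, with both treatments lower in PAGE4 cells and a fitted effect of -1.25 ± 0.20 (SE) (edgeR adjusted p = 0.000418). COL9A2 was at 6566, 3932, 3169.9 and 2095, with -1.01 ± 0.11 (SE) (edgeR adjusted p = 8.01e-06). Its lowest vector library was above its highest PAGE4 library, but the call was lost with the Wald test of DESeq2. COL9A3 was lower in both pairs by less than 1.5-fold and was not called.

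LAMB2 was the member that rose. It was at 2960.4 and 1762 normalized counts in 22RV1 vector cells and at 5979 and 3241 in PAGE4 cells. PAGE4 cells were higher at each treatment, 2.02-fold with PBS and 1.84-fold with H2O2, and the fitted effect was 0.92 ± 0.083 (SE) (edgeR adjusted p = 4.05e-07). In DU145 its fitted effect was -0.19 ± 0.083 (SE). COL5A1, at 46.7, 61.0, 90.9 and 144 in 22RV1, was over 1.5-fold higher in both pairs and was not called (edgeR adjusted p = 0.0897). LUM, a stromal marker, was 96.9 and 46.9 in 22RV1 vector cells and 26.4 and 16.3 in PAGE4 cells. ACTA2, another, went the other way, at 33.7 and 93.0 in vector and 63.7 and 163 in PAGE4 cells. The 9 stromal markers summed to 635 and 456 in vector and to 399 and 496 in PAGE4 cells. Their part in the 22RV1 results was not tested.

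**Figure D3:**
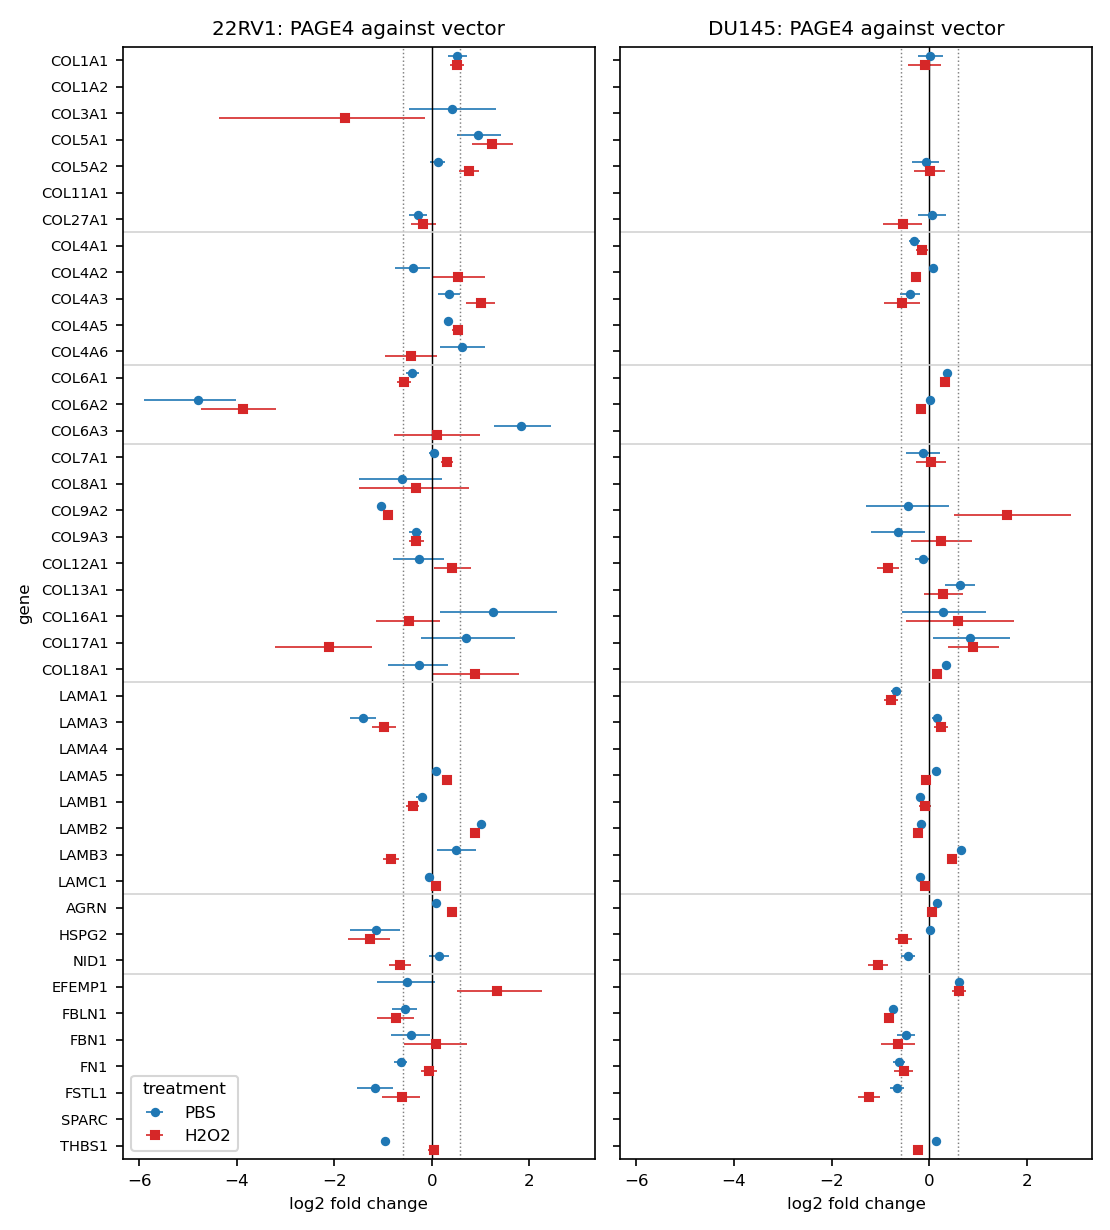
Log2 fold change of PAGE4 against vector cells for each member with a mean of at least 10 normalized counts in the line, with PBS (blue circles) and H2O2 (red squares) and 95% counting intervals. Left is 22RV1 and right DU145, and dotted lines mark a fold of 1.5. COL6A2 lies at -4.80 and -3.87 in 22RV1 and near 0 in DU145, while FBLN1 and FSTL1 lie below 0 in all 4 pairs.

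The same comparison was made in DU145. With PBS, 9 of 32 members differed by more than 1.5-fold, 4 higher and 5 lower, where 16.9% of all genes did, and with H2O2 10 of 32 did, 4 higher and 6 lower, where again 16.9% did. Medians over the 32 members were -0.029 and -0.09 on the log2 scale. By edgeR, 0 of 37 members were higher, where 0.227% of all genes tested were, and 3 were lower (FBLN1, FSTL1 and LAMA1), where 0.096% were. At an unadjusted edgeR p under 0.05, 4 members were higher and 10 lower, and the share of all genes at that threshold was not counted. The Wald test of DESeq2 also called 0 higher and 3 lower, with 58 genes called in all. With no filter on low counts, edgeR called 3 higher and 5 lower, with 217 genes called in all. When DU145 was fitted alone, it called 4 higher and 7 lower, with 416 genes called in all.

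FBLN1 lies at chr22:45502238-45601135. In DU145 it was at 5087 normalized counts in vector cells and 3050.0 in PAGE4 cells with PBS, and at 3094 and 1739 with H2O2. In 22RV1 the corresponding values were 234 and 159 with PBS and 151 and 90.4 with H2O2. PAGE4 cells were thus lower in each of the 4 pairs. The fitted effect was -0.78 ± 0.096 (SE) in DU145 (edgeR adjusted p = 0.000308) and -0.65 ± 0.13 (SE) in 22RV1 (edgeR adjusted p = 0.0044), and the difference between the lines was 0.13 ± 0.16 (SE) (edgeR adjusted p = 0.798). The 22RV1 call was lost when the libraries of 22RV1 were fitted alone. FBLN1 is given in full because the study measured it by PCR in tumours that DU145 cells formed in mice. There the study reported it as increased with PAGE4, the other direction from these cultured cells. The cause of this difference was not tested.

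FSTL1 (chr3:120392293-120451016) was the other member called lower in both lines. It was at 157, 136, 69.9 and 88.2 in 22RV1 and at 1183, 727, 751 and 309.9 in DU145, lower with PAGE4 in all 4 pairs and by more than 1.5-fold in each. The fitted effects were -0.93 ± 0.21 (SE) (edgeR adjusted p = 0.00997) and -0.93 ± 0.17 (SE) (edgeR adjusted p = 0.0207). LAMA1, which had at most 5 reads in a 22RV1 library, was at 2839, 1323, 1762 and 772 in DU145, with -0.73 ± 0.13 (SE) (edgeR adjusted p = 0.0116). EFEMP1 and COL17A1 were over 1.5-fold higher with PAGE4 in both DU145 pairs. EFEMP1 was at 1906, 942, 2912 and 1441 (edgeR adjusted p = 0.11) and COL17A1 at 25.8, 61.2, 46.4 and 114 (edgeR adjusted p = 0.695), and neither was called. EFEMP1 was called higher with no filter on low counts and when DU145 was fitted alone.

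The PAGE4 effect itself was compared between the lines, and 7 of 37 members differed, where 2.49% of all genes tested did. COL6A2, LAMA3 (-1.42), LAMB3 (-1.02), HSPG2 (-1.02) and COL6A1 (-0.86) had a lower log2 effect in 22RV1 than in DU145. COL4A3 (1.09) and LAMB2 (1.11) had a higher one. The calls of LAMB3 and COL4A3 were lost with the Wald test of DESeq2. COL4A3 was not called within either line. It was 2.00-fold higher with PAGE4 in 22RV1 cells with H2O2 and lower in both DU145 pairs.

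H2O2 was compared with PBS within each line and construct. In 22RV1 vector cells 19 of 35 members differed by more than 1.5-fold, 7 higher and 12 lower, where 36.5% of all genes did. In 22RV1 PAGE4 cells 16 of 35 did, 9 higher and 7 lower, where 29.0% of all genes did. When total counts replaced the size factors, which moved the median of all genes by 0.15 in vector cells and 0.13 in PAGE4 cells on the log2 scale, the split became 10 higher and 8 lower in vector cells and 9 and 5 in PAGE4 cells. In DU145 vector cells 21 of 32 differed, 2 higher and 19 lower, where 41.6% of all genes did, and in DU145 PAGE4 cells 23 of 32 did, 2 higher and 21 lower, where 42.4% did. The median log2 fold change of the members was -0.26 and -0.16 in the 22RV1 pairs and -0.71 and -1.0 in the DU145 pairs, and over all genes it was -0.064, -0.025, -0.03 and -0.04. Most members at or above the minimum were thus lower with H2O2 in both DU145 cultures. The 9 stromal markers summed to 430.4 in both DU145 cultures with PBS and to 197 in vector and 198 in PAGE4 cells with H2O2. Of this, TAGLN was at 351, 119, 342 and 95.8 and ACTA2 at 53.8, 7.50, 71.4 and 29.9. PDGFRB went the other way, at 14.6, 47.5, 12.5 and 66.0, so the markers did not move together. The part of these markers was not tested.

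By edgeR, 7 of 37 members were higher with H2O2 in 22RV1, where 15.2% of all genes tested were, and 9 were lower, where 16.9% were. In DU145, 3 were higher, where 19.2% of all genes tested were, and 24 were lower, where 22.8% were. LAMB3 rose in both lines. AGRN, COL4A2, FBLN1, FBN1, LAMA5, LAMB2 and THBS1 fell in both. COL12A1, COL1A1, HSPG2, LAMA3 and LAMC1 rose in 22RV1 and fell in DU145. HOXB13, a marker of 22RV1, was at 5722, 2095, 6705 and 2921 normalized counts in 22RV1, lower in both H2O2 libraries. Its part was not tested.

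**Figure D4:**
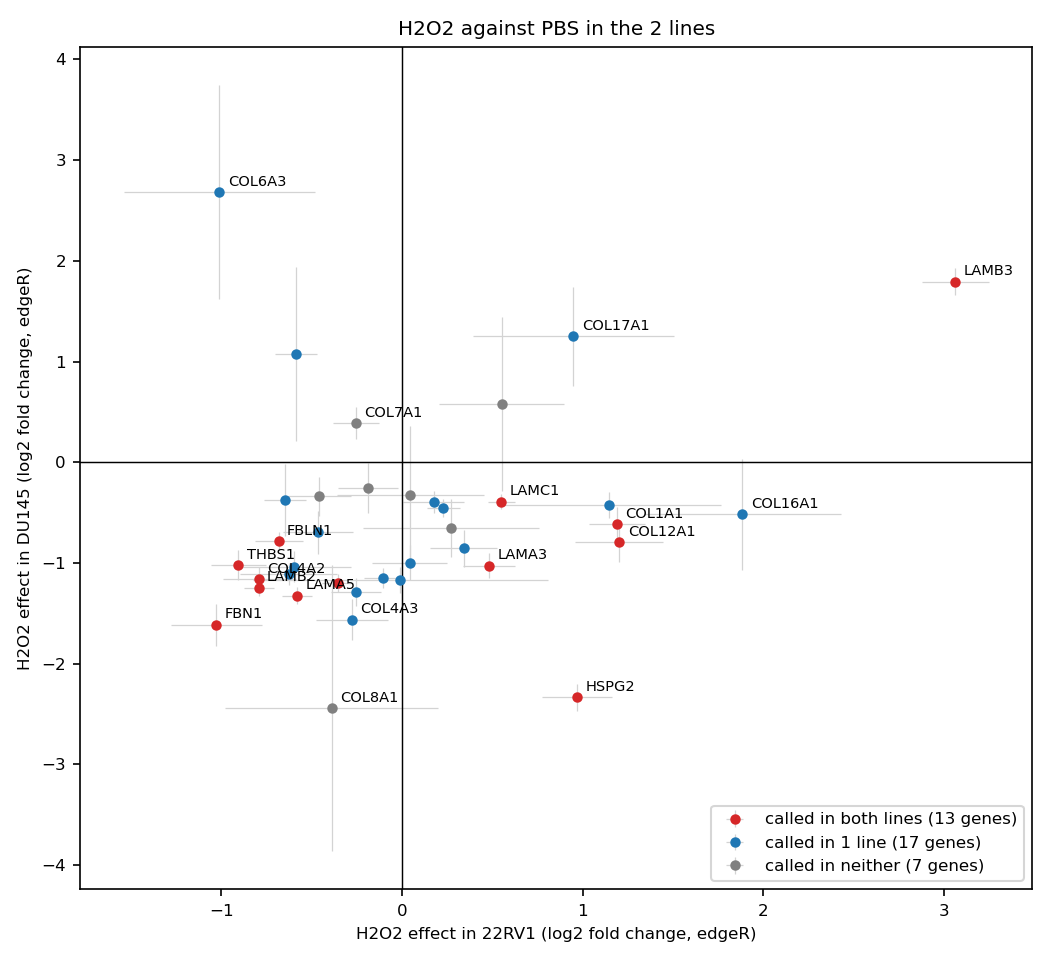
Fitted log2 fold change of H2O2 against PBS in 22RV1 (horizontal) and DU145 (vertical) for the 37 members tested, with 1 SE. Red points (13 genes) were called in both lines, blue (17) in 1 line and grey (7) in neither. LAMB3 lies apart at upper right and HSPG2 at lower right, and most points lie below the horizontal line.

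LAMB3 had the largest increase in 22RV1. It went from 67.4 to 869.9 normalized counts in vector cells and from 95.5 to 487 in PAGE4 cells. This was 12.8-fold in vector cells (log2 interval 3.39 to 4.0) and 5.08-fold in PAGE4 cells (log2 interval 2.06 to 2.65). In DU145 it went from 4281 to 16128 and from 6739.9 to 22211. All H2O2 libraries of a line lay above all its PBS libraries. The fitted effects were 3.06 ± 0.18 (SE) in 22RV1 (edgeR adjusted p = 2.24e-10) and 1.79 ± 0.13 (SE) in DU145 (edgeR adjusted p = 2.99e-09), and they differed by 1.27 ± 0.23 (SE) (edgeR adjusted p = 0.000528), a call that the Wald test of DESeq2 did not make.

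LAMA3, the alpha chain of that laminin, did not follow it. It was at 333, 404, 125 and 205 in 22RV1, where the fitted effect was 0.48 ± 0.14 (SE) (edgeR adjusted p = 0.0133), and at 1885, 911, 2099.8 and 1081 in DU145, where it was -1.03 ± 0.12 (SE) (edgeR adjusted p = 1.56e-06). In DU145 its levels with H2O2 were therefore lower while those of LAMB3 were higher. ITGB4, a receptor chain of this laminin, had fitted effects of 1.09 in 22RV1 and -1.08 in DU145, both called by edgeR. It was low in 22RV1, at 25.4, 75.8, 30.3 and 39.2 normalized counts. COL17A1, a further part of the hemidesmosome, rose in DU145 from 25.8 to 61.2 and from 46.4 to 114 normalized counts (1.25 ± 0.49 (SE), edgeR adjusted p = 0.0471), a call lost with the Wald test. In 22RV1 it was higher with H2O2 in vector cells and lower in PAGE4 cells and was not called.

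TGANTCA, the site read by AP-1 factors, was sought in the 250 bases before RefSeq starts. It was in 2 of the 37 windows of the 32 members that matched an entry, before LAMB3 and LAMA3. Over all RefSeq windows 6.57% hold it, and nothing is read from this count. Both runs are shown because these chains share a trimer and moved apart in DU145. The LAMB3 run lies before 1 of its 3 listed starts (chr1:209651395-209651624, minus strand) and leaves out the 20 bases next to the start that GENCODE gives to an exon. The LAMA3 run is chr18:23872770-23873019, plus strand, before a start inside the gene, which GENCODE begins at 23689453. The counts are per gene and do not tell starts apart. Capitals mark TGANTCA.
LAMB3: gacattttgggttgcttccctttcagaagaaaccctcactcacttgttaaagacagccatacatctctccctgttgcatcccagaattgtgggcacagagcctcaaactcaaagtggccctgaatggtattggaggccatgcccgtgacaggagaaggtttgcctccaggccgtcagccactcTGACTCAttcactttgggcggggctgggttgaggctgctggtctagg
LAMA3: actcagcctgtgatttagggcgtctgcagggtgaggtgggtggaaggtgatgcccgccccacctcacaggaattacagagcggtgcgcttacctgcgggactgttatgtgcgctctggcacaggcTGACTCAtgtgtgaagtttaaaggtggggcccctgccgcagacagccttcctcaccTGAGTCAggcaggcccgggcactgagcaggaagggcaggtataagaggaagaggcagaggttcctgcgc
The match before LAMB3 begins 67 bases before the start, and those before LAMA3 begin 125 and 69 bases before it. As letters in a window they say nothing about binding.

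Of the other laminins, LAMA5 went from 18759 to 8169 normalized counts in DU145 vector cells and from 20641 to 7792 in PAGE4 cells, a fitted effect of -1.33 ± 0.082 (SE) (edgeR adjusted p = 2.59e-10). In 22RV1 it went from 5525 to 3358 and from 5863 to 4184, -0.58 ± 0.082 (SE) (edgeR adjusted p = 1.85e-05). It fell in both lines, more in DU145, and the difference of 0.75 was called. LAMB2 fell by 0.79 in 22RV1 and by 1.25 in DU145 on the log2 scale. LAMB1 was at 3277, 1441, 2865 and 1361 in DU145, where it fell by 1.15, and at 1136, 1104, 981 and 839.9 in 22RV1, where it was not called. LAMA1 fell by 1.17 in DU145. LAMC1 rose in 22RV1, from 11687 to 15941 and from 11189 to 17021 (0.55 ± 0.074 (SE), edgeR adjusted p = 1.13e-05), and fell in DU145 (-0.39 ± 0.075 (SE), edgeR adjusted p = 0.000263). In DU145, 6 of the 7 tested laminin members fell, where 22.8% of all genes tested did, and LAMB3 rose, where 19.2% did.

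HSPG2 (chr1:21822244-21937310) differed widely in the H2O2 effect between the lines. In DU145 it was at 3288 and 3332 with PBS and at 797 and 554 with H2O2. In 22RV1 it went the other way, from 81.1 to 161 in vector and from 36.5 to 66.5 in PAGE4 cells. The fitted effects were -2.33 ± 0.13 (SE) and 0.97 ± 0.19 (SE) (edgeR adjusted p = 8.22e-11 and 0.000624), and their difference was 3.30 ± 0.23 (SE) (edgeR adjusted p = 5.87e-09). AGRN was at 9141, 4204, 10239 and 4374 in DU145 and 4011, 2764, 4249 and 3654 in 22RV1. It fell in DU145 by 1.20 and in 22RV1 by 0.36 on the log2 scale. NID1 was at 1047, 721, 778 and 348 in DU145, where it fell (-0.86 ± 0.18 (SE), edgeR adjusted p = 0.000709), and at 271, 440.0, 299.7 and 280.0 in 22RV1, where it was not called.

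All 6 tested glycoproteins fell with H2O2 in DU145, where 22.8% of all genes tested did. FBN1 went from 641 to 225 normalized counts in vector cells and from 462 to 144 in PAGE4 cells (-1.61 ± 0.21 (SE), edgeR adjusted p = 3.67e-06). FN1 was at 830.3, 564, 534 and 544 in 22RV1, where it was not called, and in DU145 went from 1811 to 732 and from 1181 to 509 (-1.29 ± 0.14 (SE), edgeR adjusted p = 3.6e-07). THBS1 was at 4317, 2468, 4769 and 2094 in DU145, with both H2O2 libraries below both PBS libraries. THBS1, FSTL1 and EFEMP1 fell by 1.02, 1.00 and 1.04 on the log2 scale, and the call of EFEMP1 was lost with the Wald test. In 22RV1, FBN1, THBS1 and FBLN1 fell. FBN1 was at 95.5, 39.1, 70.7 and 41.4 there (-1.03 ± 0.25 (SE), edgeR adjusted p = 0.0038). THBS1 was at 3032, 1136, 1555 and 1165 there, so that vector cells with PBS stood above the other 3 libraries, and its fitted effect was -0.91 ± 0.15 (SE) (edgeR adjusted p = 0.000122). FBLN1 fell by 0.68 in 22RV1 and by 0.79 in DU145. Its lowest level in each line was in PAGE4 cells with H2O2.

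Collagens moved in both directions. COL1A1 rose in 22RV1, from 259.8 to 586 and from 373 to 834 (1.19 ± 0.16 (SE), edgeR adjusted p = 7.94e-06), and fell in DU145, where it was at 279, 192, 284 and 180.4 (-0.62 ± 0.17 (SE), edgeR adjusted p = 0.00686). COL12A1 showed the same directions, at 52.2, 94.6, 43.5 and 126 in 22RV1 and 782, 581, 712 and 325 in DU145, with 1.20 and -0.79 on the log2 scale. COL16A1 rose in 22RV1 from raw counts of 10 to 62 in vector cells and 22 to 32 in PAGE4 cells (1.88 ± 0.54 (SE), edgeR adjusted p = 0.0117). It had no adjusted p when 22RV1 was fitted alone or with the Wald test, so that call was not tested there. COL9A2 fell in 22RV1 (-0.65 ± 0.11 (SE), edgeR adjusted p = 0.000202), a call lost with the Wald test.

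Within type IV collagen, COL4A2 was lower with H2O2 in DU145, by 1.95-fold in vector and 2.49-fold in PAGE4 cells, and fell by 1.16 on the log2 scale in the fit. In 22RV1 it fell by 0.79, a call lost when 22RV1 was fitted alone. Its neighbour COL4A1 fell in DU145 by 0.42, a call lost with the Wald test. COL4A3 and COL4A4 fell by 1.56 and 1.24 in DU145 and were not called in 22RV1. COL4A5 fell by 0.59 in 22RV1, with lower values in both H2O2 libraries than in both PBS libraries. COL18A1 was at 4686, 2347, 5944 and 2628 in DU145 and fell by 1.11. COL6A1 and COL6A2 fell in DU145 by 0.46 and 0.40. COL6A3 was called higher there (2.68 ± 1.06 (SE), edgeR adjusted p = 0.0494) from raw counts of 1, 9, 1 and 4, and that call was lost with the Wald test. It had no adjusted p when DU145 was fitted alone. COL7A1 was not called in either line, but its effects of -0.25 in 22RV1 and 0.39 in DU145 differed (edgeR adjusted p = 0.0325).

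**Figure D5:**
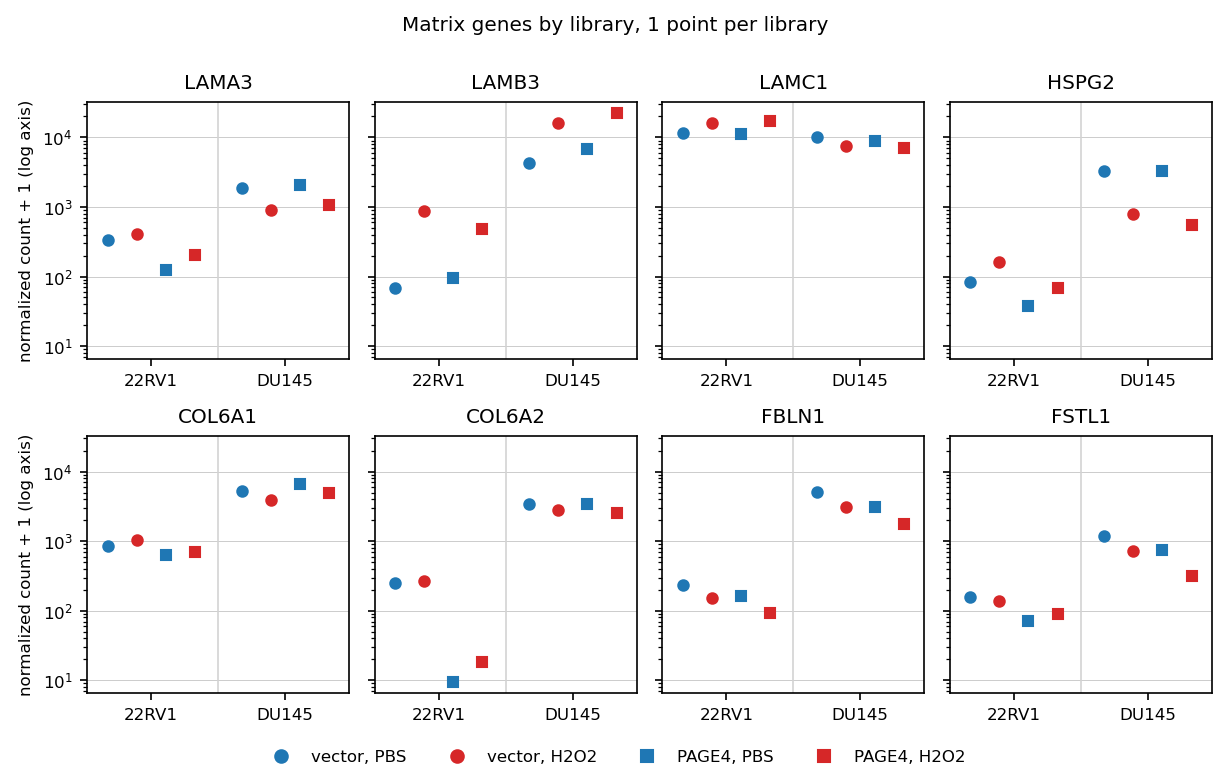
Normalized count plus 1 (log axis) of 8 genes, 1 point per library, with circles for vector and squares for PAGE4 cells and blue for PBS and red for H2O2. LAMB3 rises with H2O2 in both lines, LAMC1 rises in 22RV1 and falls in DU145, HSPG2 moves in opposite directions, COL6A2 is low only in 22RV1 PAGE4 cells, and FBLN1 and FSTL1 are lower in PAGE4 cells at each treatment.

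The H2O2 effect differed between the lines for 19 of 37 members, where 19.5% of all genes tested did. It was higher in 22RV1 for 17 of them. Apart from genes already given, FN1 (1.03), FSTL1 (1.04), NID1 (1.20) and LAMB1 (1.05) differed on the log2 scale, each having fallen in DU145 and not been called in 22RV1. The 2 with a higher effect in DU145 were COL6A3 and COL7A1.

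Genes that make, process, bind or control these proteins were counted in the same fit, with lists also drawn up when earlier results were known. Over all genes tested, 15.2% rose and 16.9% fell with H2O2 in 22RV1, and 19.2% rose and 22.8% fell in DU145, which is the background of each count of these lists, and nothing is read from the counts. Of 22 tested genes of collagen synthesis and secretion, 5 rose and 8 fell with H2O2 in 22RV1 and 2 rose and 9 fell in DU145. SERPINH1, the collagen chaperone of the endoplasmic reticulum, was at 798, 1908, 665 and 943 normalized counts in 22RV1 and 4881, 9636, 5807 and 10304 in DU145, and rose with H2O2 in both (0.92 and 0.88). PLOD2, which hydroxylates collagen lysines, fell in both by 0.88 and 0.85. P3H2, a collagen prolyl hydroxylase, went in opposite directions, with 1.20 in 22RV1 and -1.18 in DU145. It was low in 22RV1, at 14.4, 28.9, 7.8 and 21.8 normalized counts, against 1008, 455, 1009 and 452 in DU145. With PAGE4 in 22RV1, SERPINH1 fell (-0.68), FKBP10 (0.40) and COLGALT2 (0.57) rose. Of 6 crosslinking genes, TGM2, a transglutaminase, fell with H2O2 in both lines (-1.32 and -1.35), and LOX, which crosslinks collagen, fell in 22RV1 (-1.59). TGM2 was low in 22RV1, at 48.1, 16.4, 25.6 and 13.1 normalized counts.

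Against the same shares of all genes, 7 of 21 matrix receptors rose and 7 fell with H2O2 in 22RV1 and 5 rose and 12 fell in DU145. ITGB8, an integrin chain that binds latent TGF-beta, fell in both lines, by 1.70 and 1.97, and ITGA5, of the fibronectin receptor, rose in both (1.37 and 0.45). ITGB8 was low in DU145, at 66.1, 17.5, 45.3 and 11.2 normalized counts. SDC4 was the 1 receptor called with PAGE4, and it fell in 22RV1 (-0.62). Among 17 genes of the TGF-beta pathway, a main inducer of matrix genes, 5 rose and 4 fell with H2O2 in 22RV1, and 3 rose and 8 fell in DU145. TGFBR2, its signalling receptor, rose in 22RV1 (1.69) and fell in DU145 (-0.64), as did TGFBI, a secreted target (1.13 and -0.93). TGFBI was low in 22RV1, at 22.0, 39.9, 19.4 and 51.2 normalized counts. With PAGE4, TGFBR2 fell in 22RV1 (-0.56).

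Against those shares, 4 of 16 further collagens and laminins that were tested rose and 2 fell with H2O2 in 22RV1 and 5 rose and 4 fell in DU145. With PAGE4 in 22RV1, COL14A1, a collagen that binds along fibrils, rose (1.03). Of 15 other basement membrane and matricellular genes, again beside those shares, 7 rose and 4 fell with H2O2 in 22RV1 and 3 rose and 2 fell in DU145. TNC (tenascin C), a matricellular glycoprotein, rose with PAGE4 in both lines (0.97 in 22RV1, edgeR adjusted p = 2.62e-06, and 0.76 in DU145, edgeR adjusted p = 0.000717). With H2O2 it fell in 22RV1 (-1.15) and rose in DU145 (2.09). TNC was the 1 gene of these lists called with PAGE4 in DU145. Its normalized counts were 1379, 578, 2622 and 1223 in 22RV1 and 509, 2337, 919 and 3788 in DU145.

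Exons of 20 members share bases with exons of another gene in GENCODE, on the opposite strand for 15. The shared part is 18.5% of the exon bases of COL18A1 (with SLC19A1), 11.7% of HSPG2 (with LDLRAD2) and 10.3% of LAMA1, and at most 6.82% for the rest. How strand was used in counting is not given in the sources used here, so reads of such partners cannot be told apart there.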

How the data were processed

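RNA-seq libraries of 8 conditions, 1 library each, were analysed. The deposited tables hold raw counts per gene, which the authors made with HISAT2 2.1.0 (alignment, GRCh38) and featureCounts 1.6.0. The annotation release and strand setting are not given in the sources used here. Total counts were 25482984 to 43310401 per library. Gene symbols are as deposited, and exon lengths and coordinates came from GENCODE release 44. Counts were divided by DESeq2 size factors over all 8 libraries (DESeq2 1.42.0). Pairs of libraries were compared as folds with a pseudocount of 0.5, at a mean of at least 10 normalized counts over the 4 libraries of the line. Intervals are 95% Clopper-Pearson intervals and cover counting error only. The quasi-likelihood test of edgeR 4.0.16 (R 4.3.3, TMM, filterByExpr with a minimum count of 10) was fitted to the 8 libraries with 6 coefficients. Its p-values were adjusted by Benjamini-Hochberg over 19784 genes. A run of the fit on simulated counts held no line or H2O2 effects and no difference between cultures, so nothing is read from it. Since no condition has a second library, the p-values rest on the spread the fit leaves between these libraries and hold none between repeat cultures. Python 3.11.15 was used for the rest.

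The members and lists were chosen with earlier results of these data known. Members past an adjusted p of 0.05, or over 1.5-fold the same way in both pairs of a line, were given in full (up to 15 per contrast), with FBLN1, PAGE4, the type IV pairs and the laminin chains that join in trimers, and up to 5 called genes of each companion list were named. Other scalings, count minimums, folds, pseudocounts, filters, the DESeq2 Wald test and fits of 1 line or of the line alone were tried. Promoter sequences came from RefSeq (GRCh38.p14), which held 32 of the 42 members. Some genes are not reported here.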

Additional observations from a re-analysis of the deposited data

Results flagged for a closer look

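Each value here is a difference between the cell lines in a fitted log2 effect (22RV1 minus DU145), tested as such in the edgeR fit with an adjusted p under 0.05. It was listed because the same contrast gave unequal effects in the lines.

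For PAGE4 against vector, 7 members differed. COL6A2 was at -4.31, LAMA3 at -1.42, LAMB3 at -1.02, HSPG2 at -1.02 and COL6A1 at -0.86, so their effect was lower in 22RV1. LAMB2 was at 1.11 and COL4A3 at 1.09. LAMB3 and COL4A3 lost the call with the Wald test of DESeq2.

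For H2O2 against PBS, 19 members differed. Among laminins and linkers the difference was 3.30 for HSPG2, 1.51 for LAMA3, 1.27 for LAMB3, 1.20 for NID1, 1.05 for LAMB1, 0.94 for LAMC1, 0.84 for AGRN, 0.75 for LAMA5 and 0.45 for LAMB2. Among collagens it was 2.40 for COL16A1, 2.00 for COL12A1, 1.81 for COL1A1, 1.28 for COL4A3, 0.68 for COL6A1, 0.57 for COL6A2, -0.64 for COL7A1 and -3.69 for COL6A3. Among glycoproteins it was 1.04 for FSTL1 and 1.03 for FN1. COL6A2 and LAMB3 lost the call with the Wald test, in which COL16A1 and COL6A3 had no adjusted p, and COL6A2 lost it also with DESeq2 size factors and with no filter on low counts. COL6A3 rested on at most 9 reads in a DU145 library. The cause of these differences was not tested.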

How the results depend on the processing

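Of the counts of members recomputed under other settings, 72 stayed within 1.5 times and 10 did not. At a fold over 2, the PAGE4 pairs gave 8 members (22RV1, PBS), 6 (22RV1, H2O2), 0 (DU145, PBS) and 3 (DU145, H2O2), and H2O2 gave 9 in 22RV1 vector and 6 in 22RV1 PAGE4 cells. With no count minimum, the DU145 PAGE4 pairs gave 16 (PBS) and 18 (H2O2), since genes with few reads then enter. The PAGE4 effect in DU145 was called for 8 members with no filter on low counts (3 higher, 5 lower) and for 11 when DU145 was fitted alone (4 higher, 7 lower), against 3 lower. Over all genes, 217 and 416 were called under these 2 settings. The cause was not tested. The split into higher and lower moved by over 10 points with no minimum for PAGE4 in 22RV1 with H2O2 (11 and 12) and for H2O2 in DU145 (7 and 22 in vector, 7 and 24 in PAGE4 cells), with a mean of at least 50 for PAGE4 in 22RV1 with PBS (3 and 7) and DU145 with H2O2 (2 and 6) and for H2O2 in 22RV1 PAGE4 cells (8 and 4), and with 22RV1 fitted alone for PAGE4 (3 and 7). The split also moved that far with total counts for H2O2 in 22RV1 vector cells (10 and 8, against 7 and 12). It did so at a fold over 2 for H2O2 in 22RV1 PAGE4 cells (4 and 2, against 9 and 7). No call reversed under any of these alternatives. No paired analysis was possible because each condition has 1 library and the labels give no shared replicate numbers. A second culture per condition would be needed to test an interaction of PAGE4 with H2O2, and genes with few reads, such as COL6A3 in DU145, are limited by depth.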
